A study of Mus musculus with 6 samples.

Results

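NMuMG cells are an established epithelial line from the mammary gland of the mouse and a common model of the epithelial to mesenchymal transition (EMT), the switch in which epithelial cells loosen their contacts and gain motility. Described here is their expression state in the DMSO vehicle control, across all genes of the count table. The members were the libraries labelled DMSO, replicates 1 and 2, which were 2 of the 6 samples of the series. The study compared NMuMG cells given DMSO, TGF-β, or TGF-β with 2APB in duplicate, to ask how calcium entry affects the EMT program. 2APB is a modulator of store-operated calcium entry. The paper describes it as a blocker of the channels ORAI1 and ORAI2 that raises entry through ORAI3. The DMSO cells carried no genetic change in the labels and received the solvent of 2APB without TGF-β, so they were vehicle-treated rather than untreated. According to the study's methods the cells grew in serum-containing medium and were serum-starved before TGF-β was added. The cells used for RNA-seq were treated for 24 h. The study's methods also describe 2APB given ahead of TGF-β, so whether the vehicle was present for longer is not clear. A line of this kind is a cultured and immortal population, and its RNA is measured in bulk, so that fewer cells of a type and less RNA per cell cannot be told apart.

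Polyadenylated RNA was sequenced as single-end reads, and the authors deposited the number of reads counted on each gene. The DMSO libraries held 76741720 and 71840570 counts over 18512 entries, named by mouse gene symbols except for 25 names that had become dates. Levels within a gene are given as counts scaled to a library total of 1000000 (CPM), for replicate 1 and then replicate 2. Levels of different genes are compared only after division by the length of the gene's merged exons in kb (RPKM), given as mean ± SD of the 2 libraries. A gene was called expressed when it reached 1 CPM in both libraries. By that rule 11580 entries were expressed, or 62.6% of all, which is the background against which every list below is read. All 18512 entries had a count in at least 1 of the 6 libraries of the series, so genes without any count lie outside this background. Listed genes without an entry were left out of the measured members of a list, and why they had none was not tested. A further 5558 entries had some counts but missed the threshold, and 1374 had no count in either library. A count of 0 allows up to 0.0782 and 0.0835 CPM in replicates 1 and 2, which covers counting error only. Among the expressed entries 2446 had a mean below 10 CPM, 6685 lay between 10 and 100 CPM, 2374 between 100 and 1000 CPM, and 75 above 1000 CPM.

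The line was first checked against markers of its label and of other lineages. Epithelial cells are held together by E-cadherin (Cdh1) and filled with keratins, mammary luminal cells are known for keratins 8, 18 and 19 and for the regulators Elf5 and Gata3, and mammary basal cells for keratins 5 and 14 and for p63 (Trp63). Cdh1 (GRCm38 chr8:106603351-106670246, plus strand) stood at 1209 and 1221 CPM, and the luminal and bile duct keratin Krt19 (chr11:100140810-100148665, minus strand) at 598 and 568 CPM. Hnf4a (chr2:163506808-163572910, plus strand), a nuclear receptor that governs liver and gut epithelium and is not a gene of the mammary program, stood at 564 and 566 CPM. Vim (chr2:13573927-13582826, plus strand), the intermediate filament of mesenchymal and many cultured cells, stood at 1183 and 1128 CPM. Per length the order was Krt19 at 314 ± 11.6 RPKM, Cdh1 at 266 ± 1.83 RPKM, Vim at 244 ± 8.17 RPKM and Hnf4a at 117 ± 0.163 RPKM, and neighbours in this order differed by more than the SD between libraries. All 4 genes were therefore strongly and reproducibly expressed, although Cdh1 and Vim mark opposite ends of EMT. With the length of the longest transcript in place of merged exons Vim came first, at 395 RPKM, so its place depends on the length used.

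**Figure D1:**
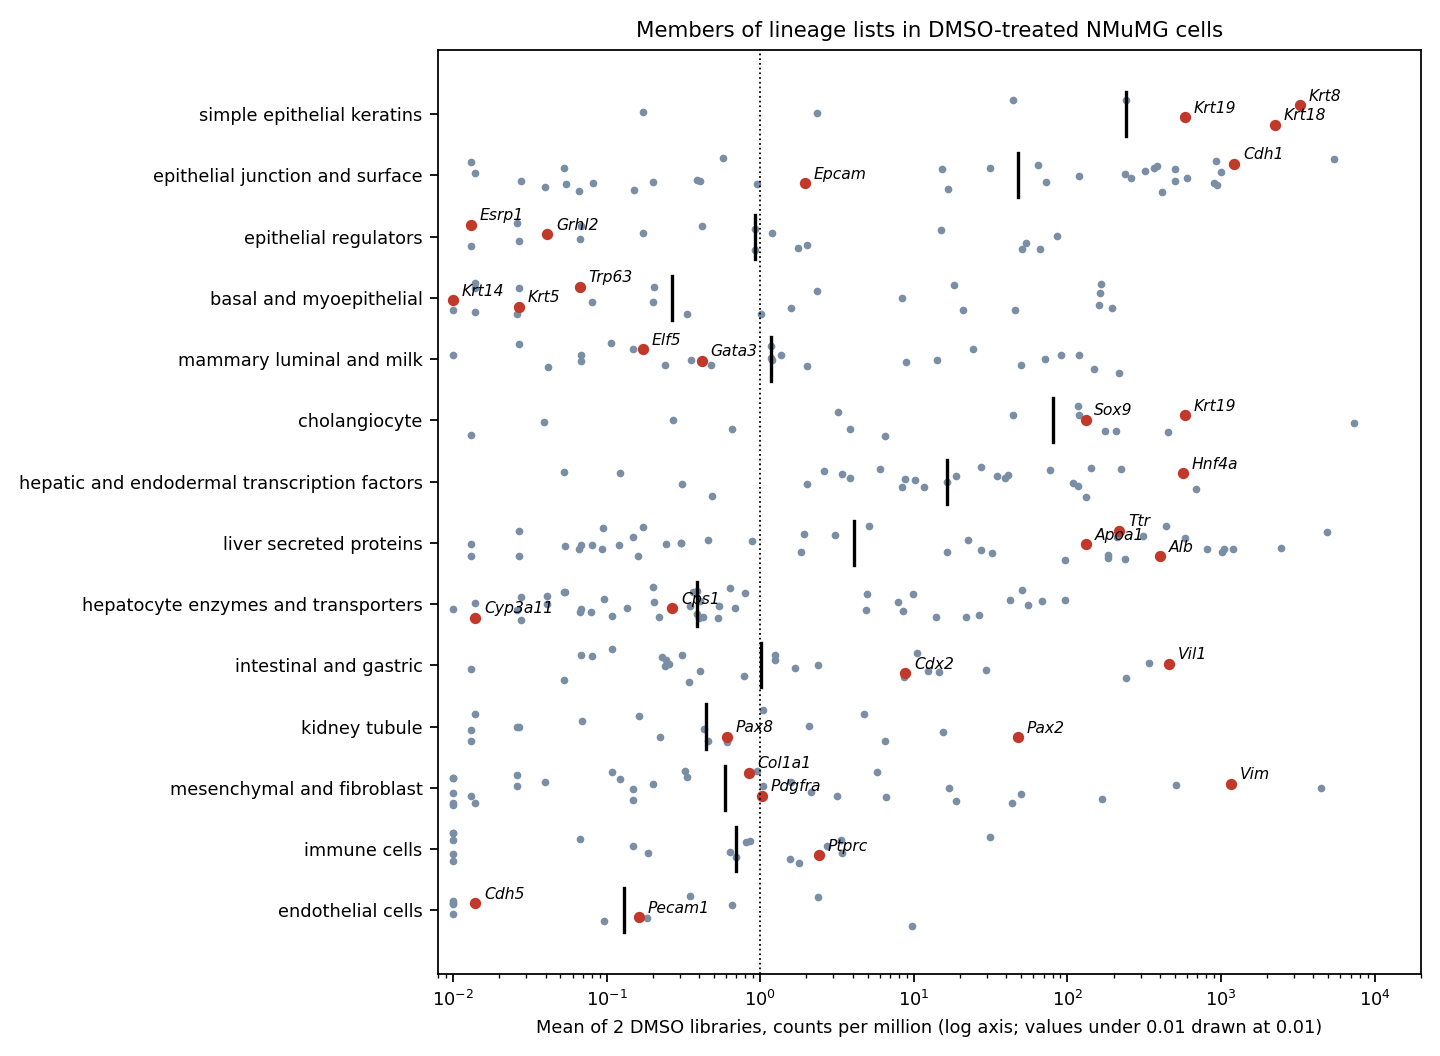
Members of 14 gene lists in DMSO-treated NMuMG cells, each point the mean CPM of the 2 libraries for a gene on a log axis, with values under 0.01 drawn at 0.01. Red points with names are defining members of a list, black bars are list medians, and the dotted line is 1 CPM. Keratins 8, 18 and 19, Hnf4a, Alb and Vil1 lie far right, while Krt14, Krt5, Trp63, Elf5, Gata3, Grhl2 and Esrp1 lie left of the line.

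Krt8 and Krt18 were the highest of the listed epithelial genes per length. Krt8, the type II keratin of single-layered epithelia, reached 3350.0 and 3159 CPM and its partner Krt18 reached 2303 and 2169.5 CPM. Per length Krt8 stood at 1662 ± 69 RPKM and Krt18 at 1556 ± 65.7 RPKM, a ratio of 1.07 in each library. Keratins of these types assemble in pairs. Krt19 was lower, and Krt8 exceeded it 5.29 ± 0.025-fold per length. Krt20, a keratin of gut epithelium, was expressed at 238 and 247 CPM, above Krt7, a keratin of ducts and glands, at 45.3 and 43.2 CPM (Krt20 126 ± 3.31 RPKM and Krt7 6.28 ± 0.204 RPKM). Of 7 simple keratins 6 were expressed, and Krt23, with 18 and 8 counts, was not.

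Adhesion genes were expressed in about the same share as all genes, some of them at high levels. Of 36 measured genes for junctions and the epithelial surface, 22 were expressed (61.1%, near the background of 62.6%). Ctnnb1, which encodes β-catenin, the link of cadherins to the cytoskeleton and a Wnt effector, was the most abundant of them at 5439 and 5409 CPM. Per length it stood at 1045 ± 4.18 RPKM, 3.93 ± 0.0429 times the level of its partner Cdh1 and 1.31 ± 0.0173 times that of the actin gene Actb. Cd24a, a surface glycoprotein of luminal and many other epithelial cells, reached 991 and 1016 CPM. Cldn2, a claudin that forms cation pores in leaky epithelia, reached 601 and 608 CPM, or 182 ± 1.61 RPKM. The desmosome genes Dsp and Dsg2 stood at 926 and 918 CPM for Dsp and 511 and 491 CPM for Dsg2, and the tight junction scaffold Tjp1 at 406 and 426 CPM.

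The genes missing from this program were as distinct. Epcam, an adhesion molecule found on most simple epithelia, barely passed the threshold at 1.69 and 2.2 CPM, or 0.887 ± 0.163 RPKM. The sealing claudins Cldn4 and Cldn7 had 2 and 6 counts for Cldn4 and 6 and 2 counts for Cldn7. The membrane protease St14 and its inhibitor Spint1 had 4 and 2 counts for St14 and 4 and 8 counts for Spint1, while the related inhibitor Spint2 was at 387 and 379.9 CPM. These absent members were chosen for naming after their values were seen. Of the desmosome genes, the desmocollin gene Dsc2 had 6 and 16 counts and the plakophilin gene Pkp3 had 40 and 18 counts, and neither was expressed. Thus the cells expressed Cdh1 with its catenin Ctnnb1 and some of the desmosome genes, but held few transcripts of Epcam and the sealing claudins.

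Epithelial regulators showed the same split. Only 8 of 19 were expressed (42.1%), and 5 at 5 CPM or at 1 RPKM. Elf3 and Ehf, ETS factors of epithelial differentiation, stood at 66.1 and 65.9 CPM for Elf3 and 85.2 and 86.1 CPM for Ehf, which per length was 29.8 ± 0.0714 RPKM for Elf3 and 15.4 ± 0.106 RPKM for Ehf. Klf5 and Klf4, zinc finger factors of epithelial growth and differentiation, stood at 51.3 and 49.8 CPM for Klf5 and 15.2 and 14.6 CPM for Klf4. Esrp2, a splicing factor that sets epithelial isoforms, was expressed at 54.4 and 52.3 CPM, whereas its paralog Esrp1 had 2 and 0 counts. Grhl2, which activates Cdh1 and many junction genes in most epithelia, had 2 and 4 counts, and Ovol2, a repressor of EMT factors, had 4 and 0 counts. In these libraries a high level of Cdh1 thus went together with hardly any Grhl2, Ovol2 or Esrp1 RNA.

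Basal and myoepithelial genes divided into matrix receptors, which were present, and the keratin and p63 program, which was not. Of 24 measured genes 10 were expressed (41.7%). The highest per length was Itgb4 at 23.7 ± 0.379 RPKM, followed by the focal adhesion gene Vcl at 19.7 ± 0.0777 RPKM, Itga6, which with Itgb4 forms the integrin of hemidesmosomes, at 18 ± 0.401 RPKM, and the myosin kinase gene Mylk at 17.3 ± 0.458 RPKM. In CPM these stood at 164 and 168 CPM for Itgb4, 159.9 and 165 CPM for Itga6, 161 and 162 CPM for Vcl and 192 and 199 CPM for Mylk. All of them are also used by many non-basal cells. The defining members were near 0, with 2 and 2 counts for Krt5, 0 and 0 counts for Krt14 and 6 and 4 counts for Trp63. Of the contractile genes of myoepithelial cells, Acta2 had 20 and 10 counts and Myh11 8 and 4 counts, Cnn1 and Tagln lay at the threshold with 1.04 and 0.974 CPM for Cnn1 and 1.56 and 1.59 CPM for Tagln, and Mylk was the exception given above.

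The mammary program was expressed in part, through genes that many epithelia share. Of 34 listed mammary luminal and milk genes 26 had an entry and were measured. Of these 26 genes 14 were expressed (53.8%), and only 9 at 5 CPM or at 1 RPKM. The median was 0.205 RPKM over all 26, against 2.39 RPKM over all entries with a length. The highest per length were Cd14, a receptor for bacterial lipopolysaccharide, at 125 ± 5.24 RPKM, Muc1, a cell surface mucin, at 50.9 ± 1.95 RPKM, Lcn2, an iron-binding defence protein, at 34.4 ± 0.742 RPKM, and Mfge8, a milk fat globule protein, at 31.9 ± 0.155 RPKM. In CPM Cd14 stood at 223 and 209.8 CPM, Muc1 at 123 and 116 CPM, Lcn2 at 88.9 and 91.7 CPM and Mfge8 at 150.1 and 149 CPM. None of these is restricted to the mammary gland. Stat5b, a carrier of prolactin signals, was expressed at 71.6 and 71.6 CPM.

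Genes that define mammary identity were at or near 0. Gata3, required for luminal fate, had 34 and 28 counts, or 0.443 and 0.39 CPM, and Elf5, the regulator of secretory luminal cells, had 18 and 8 counts, or 0.235 and 0.111 CPM. The estrogen receptor gene Esr1 had 2 and 2 counts and the prolactin receptor gene Prlr 22 and 14 counts. Of the milk genes, Csn3 had 0 and 6 counts and Glycam1 0 and 0 counts, while Csn2, Wap and the progesterone receptor gene Pgr were not analysed here. The luminal keratins 8, 18 and 19 were high, but they are shared with many simple epithelia. In all 14 of the 26 list members were expressed, among them Wnt4 at 49.9 and 50 CPM and Stat5a at 25 and 23.7 CPM. Xdh at 13.1 and 15.1 CPM and Areg at 8.24 and 9.55 CPM were others. Gata3, Elf5, Esr1 and Prlr thus go against the mammary label of the line, but the list as a whole is mixed. The cells are called by their label and leading genes in what follows.

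Regulators of liver, gut and other endodermal epithelia were mostly expressed. Of 27 measured hepatic and endodermal transcription factors 23 were expressed, or 85.2% against 62.6% of all entries. At 5 CPM 19 were expressed, and at 1 RPKM 20. The expressed members had a median of 5.38 RPKM, below the 7.73 RPKM over all expressed entries with a length. Nr1i3, Nr0b2 and Gata5 were among those not expressed. Hnf4a led at 117 ± 0.163 RPKM, and its libraries differed by 0.0028 on the log2 scale. Foxa2, a pioneer factor of endoderm, stood at 141 and 145 CPM and 60.5 ± 1.22 RPKM. Hhex, an early factor of liver and bile duct buds, stood at 217 and 231 CPM, and Cebpb, a factor of the liver acute phase and of many other cells, at 83.8 and 70.4 CPM, which per length was 44.3 ± 2.03 RPKM for Hhex and 51.3 ± 6.33 RPKM for Cebpb.

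Further endodermal factors were spread over a wide range of levels. Sox9, a factor of ducts and progenitors, stood at 128 and 135 CPM, Onecut2 at 672 and 700.2 CPM and Gata6 at 110.3 and 107 CPM. Pdx1 and Cdx2, of which Pdx1 specifies pancreas and duodenum and Cdx2 hindgut, stood at 11.5 and 11.7 CPM for Pdx1 and 8.73 and 8.91 CPM for Cdx2, which per length was 5.38 ± 0.0483 RPKM for Pdx1 and 3.9 ± 0.0557 RPKM for Cdx2. Among the forkhead paralogs Foxa2 was 12 ± 0.375 times as high per length as Foxa3, and Foxa1, the paralog used by luminal mammary cells, was at 1.69 and 2.34 CPM.

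Some genes for proteins that the liver secretes into plasma were among the most abundant transcripts, and others were near 0. Of 44 measured, 25 were expressed (56.8%, below the background), and the expressed ones had a median of 125 RPKM, against 7.73 RPKM over all expressed entries with a length. Over the whole list the median was 2.44 RPKM, about that of all entries at 2.39 RPKM. Apob, the protein scaffold of very low density lipoprotein and chylomicrons, stood at 4886 and 4911 CPM. Complement C3 stood at 2422 and 2508 CPM, the vitamin D binding protein gene Gc at 1061 and 1042 CPM, and the retinol carrier Rbp4 at 1038 and 1001 CPM. Per length these ranked Rbp4 759 ± 19.5 RPKM, Gc 570.0 ± 7.18 RPKM, C3 479 ± 11.8 RPKM and Apob 352 ± 1.23 RPKM. Together the 44 genes took 14639 and 14477 CPM of the libraries.

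Some classical hepatocyte markers were present, while others, given below, were near 0. Albumin (Alb), the main plasma protein, stood at 419 and 388 CPM and 172 ± 9.13 RPKM, and its fetal relative Afp at 99.3 and 93 CPM, so that Alb was 6.04 ± 0.0396 times Afp per length. The thyroxine carrier Ttr stood at 228 and 205 CPM and 183 ± 13.5 RPKM, and Apoa1, the protein of high density lipoprotein, at 143 and 123 CPM and 108 ± 11.9 RPKM. The differences between replicates were larger for Alb, Ttr and Apoa1 than for Apob or Hnf4a. Their log2 ratios of replicate 2 over 1 were -0.11 for Alb, -0.15 for Ttr and -0.23 for Apoa1. Of the 25 expressed members 21 were higher in replicate 1, although the median log2 ratio was only -0.064, and with TMM scaling 22 were, against 46% of all expressed entries by CPM and 52% with TMM.

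Levels within the secretory list were uneven. Fibrinogen is built from equal numbers of its chains in hepatocytes, but Fgb stood at 185 and 182 CPM, Fga at 23 and 22.3 CPM and Fgg at 2.06 and 1.78 CPM. Per length Fgb was 6.41 ± 0.0724 times Fga and 52.7 ± 4.84 times Fgg. Apoe, a major apolipoprotein of liver, was only at 5.24 and 5.01 CPM, and Ahsg, Serpinc1 and F2, which encode fetuin, antithrombin and prothrombin, had 10 and 4 counts for Ahsg, 12 and 10 counts for Serpinc1 and 32 and 14 counts for F2. Serpina1b and Serpina1a stood at 456 and 427 CPM for Serpina1b and 248 and 226 CPM for Serpina1a, but these near-identical antitrypsin genes can share reads and their split is uncertain.

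Metabolic enzymes and transporters of hepatocytes mostly missed the threshold. Only 13 of 45 measured were expressed (28.9%), less than the share over all entries. Among the highest per length were Cyp4a12a, a fatty acid hydroxylase, at 40.1 ± 0.142 RPKM, Cyp3a13, a drug-metabolising enzyme, at 23 ± 0.388 RPKM, and Fah of tyrosine breakdown at 23 ± 0.852 RPKM. In CPM they stood at 96.9 and 97.4 CPM for Cyp4a12a, 67.1 and 68.7 CPM for Cyp3a13 and 52.3 and 49.6 CPM for Fah. Cyp4a12a shares much of its sequence with Cyp4a12b, at 4.67 and 5.09 CPM, so the split between them is uncertain. The urea cycle gene Cps1 had 26 and 14 counts and the main adult drug-metabolising gene Cyp3a11 had 0 and 2 counts. Likewise Tat and G6pc, enzymes of amino acid and glucose metabolism, had 4 and 10 counts for Tat and 4 and 6 counts for G6pc. Most listed liver regulators and 25 of the 44 plasma protein genes were thus expressed, and most of the listed metabolic genes were not.

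The promoters of the secreted protein genes were searched for letters that nuclear receptors are known to bind. The motif was chosen after the levels were seen, and matches are descriptions of the letters, not binding sites. AGGTCA, the core of many nuclear receptor motifs, was sought on both strands in the 250 bases before each RefSeq gene start (GRCm38.p6), and was held by 14% of 32851 promoters. Of the 19 expressed secreted protein genes with a promoter in the table, 7 held it in at least 1 promoter, against 12.8% of all 8822 expressed genes with a promoter. It was also held by 5 of the 17 secreted protein genes that were not expressed and by 10 of the 25 hepatocyte enzyme genes that were not expressed, against 17% of all 4486 genes that were not expressed. Among expressed genes it was also held by 2 of 8 hepatocyte enzyme genes and 3 of 16 endodermal factors. The same held for 3 of 15 junction genes and 2 of 11 mammary genes. Of those not expressed, 0 of 3 endodermal factors, 2 of 6 junction genes and 2 of 8 mammary genes held it. Members that were not expressed, and lists other than those of liver genes, thus held the motif as well.

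Markers of other endodermal and tubular epithelia were mixed. Of 26 measured intestinal and gastric genes 13 were expressed (50%). Vil1, which bundles actin in microvilli, stood at 469 and 443 CPM and 128 ± 5.19 RPKM, and Cdh17, the cadherin of gut and liver, at 338 and 346 CPM and 76.5 ± 1.2 RPKM. Tff3, a mucus-associated peptide, stood at 11.9 and 9.21 CPM and 21.4 ± 3.87 RPKM. Cdh1 was 3.47 ± 0.0287 times as high per length as Cdh17, which itself exceeded N-cadherin (Cdh2) 3.69 ± 0.0158-fold. The secretory mucin Muc2, the stem cell receptor Lgr5 and the lipid carrier Fabp1 were nearly silent, with 6 and 10 counts for Muc2, 20 and 14 counts for Lgr5 and 34 and 26 counts for Fabp1.

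Bile duct genes included some with high levels. Of 16 measured 12 were expressed (75%, against 62.6% of all entries), and 10 at 5 CPM or at 1 RPKM, with a median of 15.5 RPKM over the list. Spp1, which encodes the secreted phosphoprotein osteopontin, stood at 7314 and 7434 CPM and 4475 ± 51.6 RPKM, among the highest genes per length. Anxa13, an annexin of polarised epithelia, stood at 457 and 447 CPM and 335 ± 5.04 RPKM. Krt19, Muc1 and Sox9 belong to this list as well, and Sox9 stood at 31.7 ± 1.22 RPKM. Krt19 was also counted with the simple keratins and Muc1 with the mammary genes, so the list does not single out bile duct. The duct transport genes Cftr and Sctr had 6 and 0 counts for Cftr and 2 and 0 counts for Sctr. The lists overlap, so shared members are counted in each.

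Kidney, lung and pancreas genes were mostly low. Of 18 kidney tubule genes 5 were expressed (27.8%). Pax2, a factor of kidney and reproductive ducts, stood at 48.2 and 46.6 CPM, but its partner Pax8 had only 0.495 and 0.724 CPM. The other expressed members were the water channel Aqp1 at 6.78 and 6.24 CPM, the sodium channel subunit Scnn1a at 4.85 and 4.57 CPM, the endocytic receptor Cubn at 15.6 and 15.5 CPM and the kidney cadherin Cdh16 at 2.14 and 2.03 CPM. Per length Pax2 stood at 8.77 ± 0.214 RPKM. Of 10 measured lung and pancreas genes only Foxj1, a factor of ciliated cells, at 17.3 and 16.7 CPM, and Pdx1 were expressed, and the lung and thyroid factor Nkx2-1 had 4 and 2 counts.

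Mesenchymal genes were expressed selectively. Of 34 measured 15 were expressed (44.1%), and 9 at 1 RPKM, with a median of 0.101 RPKM over the list. Fn1, the matrix protein fibronectin, which liver cells also secrete into plasma, stood at 4427 and 4498 CPM and 382 ± 4.27 RPKM. Sparc, a matrix glycoprotein, stood at 512 and 512 CPM and 135 ± 0.0667 RPKM, and Cdh2, which replaces Cdh1 in EMT, at 166 and 168 CPM and 20.7 ± 0.225 RPKM. Cdh1 remained 12.8 ± 0.051 times as high as Cdh2 per length, or 7.95 times with the length of the longest transcript.

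Several fibroblast markers were near 0 or at the threshold. Col1a1, the major fibrillar collagen, had 52 and 72 counts, or 0.678 and 1.0 CPM, and Pdgfra, a growth factor receptor of fibroblasts, lay at the threshold with 1.02 and 1.03 CPM. Col1a2, Col5a2, Thy1 and Fbn1 had 0 counts in both libraries, and Col3a1 and Dcn had 10 and 12 counts for Col3a1 and 4 and 0 counts for Dcn. So Vim and Fn1 were abundant in cells in which these collagens and surface markers of fibroblasts were nearly absent. Of the 34 measured members of the list 15 were expressed, and 8 stood at 10 CPM or more.

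Some listed regulators of EMT were expressed without added TGF-β, while Snai1, Snai2 and Twist1 were low or absent. The list mixes repressors of Cdh1 such as Zeb1 with the inhibitors Id1 and Id2, so its share does not count EMT inducers alone. Of 22 measured 16 were expressed (72.7%, against 62.6% of all entries), and 13 at 5 CPM or at 1 RPKM. The highest per length were Id2 and Id1, inhibitors of E-box binding proteins, at 327 ± 5.72 RPKM for Id2 and 197 ± 14.7 RPKM for Id1, Sox4 at 81.5 ± 1.68 RPKM and the E protein gene Tcf3 at 36.9 ± 0.702 RPKM. In CPM Id2 stood at 807 and 787 CPM, Id1 at 241 and 217 CPM, Sox4 at 397 and 385 CPM and Tcf3 at 147 and 151 CPM. Zeb1 and Zeb2, direct repressors of Cdh1, stood at 49.2 and 50.1 CPM for Zeb1 and 19.1 and 18.6 CPM for Zeb2, and per length Zeb1 was 5.11 ± 0.168 times Zeb2. Snai2 was low at 2.37 and 2.31 CPM, and Snai1, the factor the study followed, had 6 and 12 counts, or 0.0782 and 0.167 CPM. Twist1 had 0 counts in both libraries. The baseline of Snai1 thus rested on few reads, and no difference between the replicates could be read from it.

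**Figure D2:**
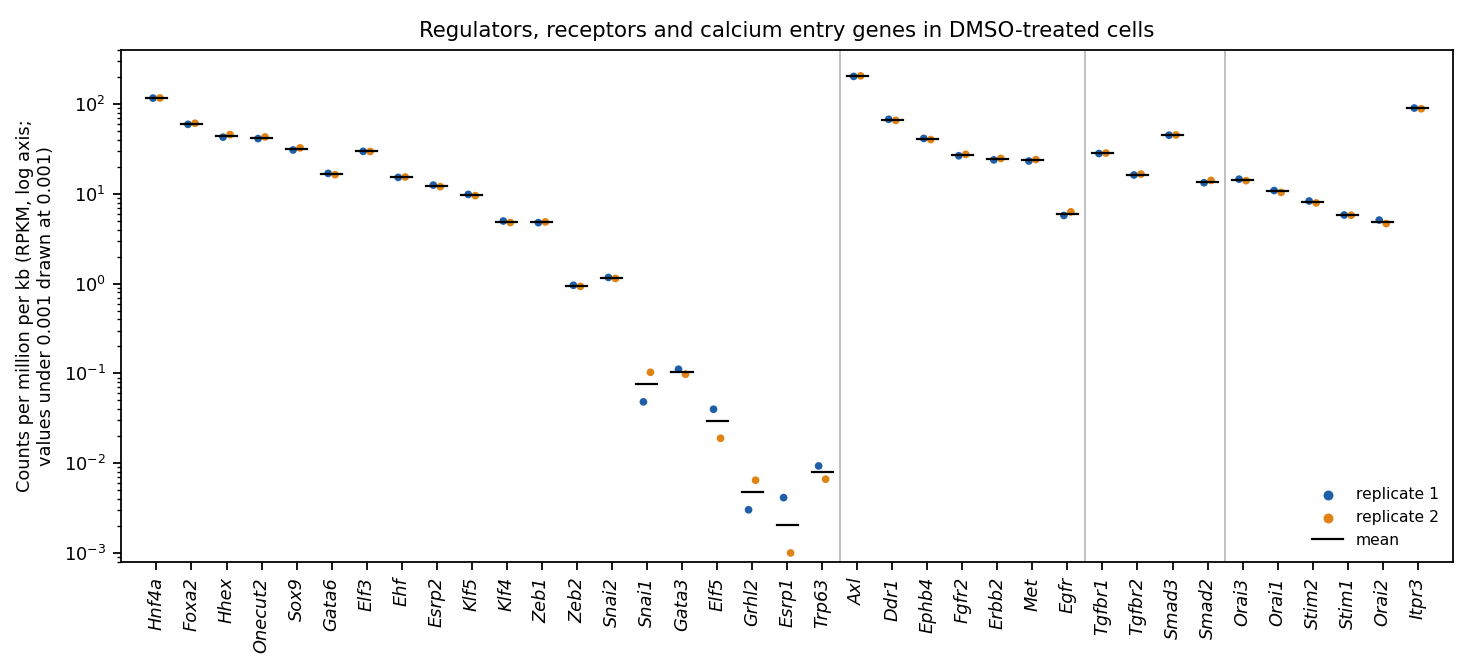
Levels of regulators, receptors, SMADs and calcium entry genes in DMSO-treated NMuMG cells as RPKM on a log axis, with replicate 1 in blue, replicate 2 in orange and the mean as a bar, and values under 0.001 drawn at 0.001. The libraries overlap for the endodermal factors, the receptors and the calcium genes, while Snai1, Elf5, Grhl2, Esrp1 and Trp63 are among the lowest and scatter, since they rest on few counts.

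The TGF-β pathway signals from a type II receptor through a type I receptor to SMAD proteins, which enter the nucleus with Smad4. Of 31 measured receptors, ligands and SMADs 26 were expressed (83.9%). The type I receptor Tgfbr1 stood at 184 and 186 CPM and the type II receptor Tgfbr2 at 133 and 136 CPM, and per length Tgfbr1 was 1.73 ± 0.0122 times Tgfbr2. Smad3 led the list at 250.1 and 252 CPM and 45.3 ± 0.213 RPKM, 3.3 ± 0.123 times as high per length as Smad2. Smad4 stood at 131 and 139 CPM and 36.4 ± 1.57 RPKM, and Smad5, which carries BMP signals, at 144 and 156 CPM and 20.2 ± 1.19 RPKM. The inhibitory SMAD gene Smad7 stood at 62.1 and 62.7 CPM. Of the ligands Tgfb1 was at 28.6 and 28 CPM and Tgfb2 at 7.27 and 7.15 CPM. Both receptors and Smad2, Smad3 and Smad4 were thus present as RNA, and 21 of the 26 expressed members were higher in replicate 2, by a median log2 ratio of 0.035, or 18 of 26 with TMM scaling, against 54% of all expressed entries by CPM and 48% with TMM.

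Store-operated calcium entry couples depletion of the endoplasmic reticulum, sensed by STIM proteins, to ORAI channels in the plasma membrane. Of 21 measured genes 12 were expressed (57.1%). Among the channels Orai3 stood at 31.3 and 30.1 CPM, Orai1 at 25 and 23.9 CPM and Orai2 at 31.1 and 28.4 CPM. Per length the order was Orai3 at 14.3 ± 0.389 RPKM, Orai1 at 10.7 ± 0.357 RPKM and Orai2 at 4.89 ± 0.314 RPKM, with Orai3 1.34 ± 0.00849 times Orai1. By the longest transcript Orai3 was only 1.1 times Orai1. Orai2 had nearly as many counts as Orai3, and its last place was not repeated with that length. The sensor Stim1 had more counts, at 60.4 and 60.1 CPM against 42.8 and 40.8 CPM for Stim2, and per length Stim2 was 1.4 ± 0.0434 times Stim1. With the length of the longest transcript that ratio was 0.613, so the order of the sensors depends on the length used.

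Some release and pump genes around this pathway were higher per length than the ORAI and STIM genes, and others were nearly silent. Itpr3, a calcium release channel of the endoplasmic reticulum, stood at 816 and 801 CPM and 89.7 ± 1.18 RPKM, 75.2 ± 2.95 times Itpr2 per length. The pump gene Atp2a2 stood at 493 and 503 CPM and 81.8 ± 1.15 RPKM, the STIM regulator Tmem66, also named Saraf, at 107 and 103 CPM and 35.9 ± 1.05 RPKM, and the channel kinase gene Trpm7 at 183 and 192 CPM and 16.6 ± 0.552 RPKM. The ryanodine receptors were nearly silent, with 4 and 12 counts for Ryr1, 12 and 6 counts for Ryr2 and 4 and 6 counts for Ryr3. Of the measured TRPC channels Trpc1 was expressed, at 6.65 and 7.04 CPM.

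Receptor tyrosine kinases were dominated by Axl. Of 45 measured 29 were expressed (64.4%), and 19 at 5 CPM or at 1 RPKM. Axl, the receptor of the ligand Gas6, stood at 1026 and 1040.4 CPM and 205 ± 2.02 RPKM, 34.1 ± 1.87 times as high per length as Egfr. Ddr1, a collagen receptor, stood at 324 and 315 CPM and 66.9 ± 1.28 RPKM, and the ephrin receptor gene Ephb4 at 193 and 187 CPM and 40.9 ± 0.836 RPKM. Fgfr2, whose epithelial isoform receives stromal growth factors, stood at 275 and 285 CPM and 27.1 ± 0.692 RPKM, 109.6 ± 13.8 times Fgfr1 per length. Erbb2 and Met stood at 125 and 129 CPM for Erbb2 and 179 and 185 CPM for Met. The fibroblast receptor gene Pdgfrb had 10 and 12 counts, and the endothelial receptor gene Kdr had 0 counts in both libraries.

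Integrins link cells to matrix. Of 26 measured 15 were expressed (57.7%), and the highest per length were the common β chain Itgb1 at 169 ± 2.43 RPKM, the laminin receptor chain Itga3 at 30.6 ± 0.759 RPKM, the vitronectin receptor chain Itgav at 29.6 ± 1.03 RPKM, and Itgb4. In CPM they stood at 683 and 697 CPM for Itgb1, 171 and 178 CPM for Itga3 and 309.9 and 326 CPM for Itgav. Itga3 and Itgav differed by no more than the SD of Itgav, so their order is not resolved. Itga6 and Itgb4, described above, form another laminin receptor.

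Hormone and nuclear receptors carry signals of steroids, lipids and other hormones. Of 31 measured 23 were expressed (74.2%, against 62.6% of all entries). Hnf4a, higher per length than any of them, was counted with the endodermal factors and not in this list. The highest of the list per length were the orphan receptor Nr2f6 at 45.1 ± 1.44 RPKM, the oxysterol receptor Nr1h2 at 29.4 ± 0.681 RPKM, the estrogen-related receptor Esrra at 22.4 ± 0.177 RPKM and the retinoid partner Rxra at 20 ± 0.289 RPKM. In CPM these stood at 138 and 132 CPM for Nr2f6, 97.1 and 100.3 CPM for Nr1h2, 99 and 97.9 CPM for Esrra and 110.1 and 108 CPM for Rxra. The glucocorticoid receptor gene Nr3c1 stood at 125 and 122 CPM. The estrogen receptor genes Esr1 and Esr2 had 2 and 2 counts for Esr1 and 16 and 8 counts for Esr2.

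Genes of cell division and of growth suppression were expressed together. Of 31 measured cell cycle and suppressor genes 29 were expressed (93.5%). Of these 24 were higher in replicate 2, by a median log2 ratio of 0.065, or 23 with TMM scaling. Over all expressed entries the share higher in replicate 2 was 54% by CPM and 48% with TMM. The replication clamp Pcna stood at 136 and 152 CPM and 60.1 ± 4.83 RPKM, and Trp53, which encodes p53, at 153 and 156 CPM and 38.2 ± 0.459 RPKM. The TGF-β-responsive inhibitor Cdkn2b stood at 49.7 and 50.8 CPM and 36.2 ± 0.578 RPKM, whereas the neighbouring Cdkn2a was at 2.89 and 2.51 CPM. Mki67 and Top2a, markers of dividing cells, stood at 142 and 164 CPM for Mki67 and 149.9 and 182 CPM for Top2a. RNA levels say nothing of whether these suppressors were intact.

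Xist, the RNA that silences an X chromosome in female cells, stood at 3988 and 4382 CPM, among the 10 entries with the most counts. Of 10 sex chromosome genes 5 were expressed, the X-linked Ddx3x at 609 and 629 CPM, Eif2s3x at 318 and 320.5 CPM, Kdm5c at 222 and 228 CPM and Kdm6a at 98.8 and 106 CPM beside Xist. The Y-linked partners were near 0, with 14 and 6 counts for Ddx3y, 16 and 4 counts for Eif2s3y, 2 and 0 counts for Kdm5d and 0 and 0 counts for Uty. Xist was thus high and the Y-linked genes were near 0 in both libraries.

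Markers of cells that an epithelial culture should lack were mostly low. Of 12 endothelial genes only Egfl7 at 9.46 and 10.1 CPM and Flt1 at 2.29 and 2.48 CPM were expressed, and the defining Pecam1 and Cdh5 had 10 and 14 counts for Pecam1 and 0 and 2 counts for Cdh5. Of 8 adipocyte genes 4 were expressed, Pparg at 26.5 and 25.3 CPM, Lipe at 7.35 and 6.54 CPM, Cidec at 1.9 and 2.2 CPM and Lpl at 5.45 and 1.7 CPM, while the fat cell hormone gene Adipoq had 0 and 2 counts. Of 14 neural, muscle and erythroid genes 4 were expressed, among them Mbp at 94.5 and 90.9 CPM, Tnnt2 at 5.94 and 6.71 CPM and Des at 1.04 and 1.03 CPM, and the neuronal Snap25 had 4 and 0 counts. Of 19 leukocyte genes 7 were expressed, but only 1 at 5 CPM and 3 at 1 RPKM. The summed level of this list is described with the replicates below.

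Only 2 of 21 measured Hox genes were expressed, among them Hoxb13 at 2.22 and 1.81 CPM, so the positional code that most body cells carry was close to silent in the members measured. Of 50 histone genes 4 passed the threshold, and 8 passed at 0.5 CPM. The 4 were Hist1h1c at 31.6 and 28.3 CPM, Hist1h2bc at 17.2 and 14.9 CPM, Hist2h2be at 8.57 and 9.44 CPM and Hist3h2a at 9.2 and 8.41 CPM. Most replication-dependent histone transcripts end without a poly(A) tail, and selection with oligo-dT passes them over. Their low counts are therefore no measure of histone synthesis.

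The 10 entries with the most counts took 6.49% and 6.49% of the libraries, so no small group of genes set the scale. The elongation factor gene Eef1a1 led at 13889 and 13465 CPM, followed by Clu, which encodes the secreted chaperone clusterin, at 13035 and 13236 CPM. Spp1, Ctnnb1, Apob and Fn1, described above, were among them, with the elongation factor Eef2 at 4569.6 and 4412 CPM, Xist, the chaperone Hspa8 at 4040.0 and 3927 CPM and the ubiquitin ligase Nedd4 at 3292 and 3244 CPM. Per length Eef1a1 stood at 5486 ± 120.4 RPKM, Spp1 at 4475 ± 51.6 RPKM and Clu at 3822 ± 41.2 RPKM, so that 2 secreted proteins stood next to a translation factor at the top. The order of Spp1 and Clu was the reverse with the length of the longest transcript. Chosen after the values were seen, the membrane protein gene Tm4sf4 at 849 ± 0.995 RPKM, the glutathione transferase gene Gsta4 at 732 ± 25 RPKM and the envelope protein gene Sprr1a at 669 ± 34.9 RPKM were also among the highest.

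Housekeeping genes gave the scale of a strongly used gene. All 12 were expressed, among them Actb at 2163 and 2111 CPM and 798 ± 13.7 RPKM, the chaperone Hsp90ab1 at 3069 and 3066 CPM and 1023 ± 0.764 RPKM, and the ribosomal stalk gene Rplp0 at 2137 and 2016 CPM and 1252 ± 51.8 RPKM. Of 84 cytosolic ribosomal protein genes 79 were expressed, and the highest per length were Rplp1 at 2272 ± 58.4 RPKM, Rplp0, Rps3a1 at 978 ± 5.74 RPKM and Rps15 at 894 ± 4.54 RPKM. Ribosomal protein genes have many processed pseudogenes that can take reads, so their levels are uncertain. Of the 79, 71 were higher in replicate 1, by a median log2 ratio of -0.038, or 74 with TMM scaling, against 46% of all expressed entries by CPM and 52% with TMM.

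Reproducibility was high and depended on level. Over the 11580 expressed entries the log2 ratio of replicate 2 over replicate 1 had an SD of 0.13 and a median of 0.0077, and 83.7% of entries lay within 1.1-fold. The SD was 0.22 for means of 1 to 10 CPM, 0.09 for 10 to 100 CPM, 0.058 for 100 to 1000 CPM and 0.094 for the 75 entries above 1000 CPM. Counting error alone would give 0.19, 0.063, 0.025 and 0.0086 in the same bands, with every 2 counts taken as 1 read because all deposited values were even. Separate samples are expected to differ by more than counting error, so these values only give the scale of that error. In the highest band 97.3% of the 75 entries lay within 1.1-fold, and the other 2, Malat1 and Rn45s, are given below. The study's methods call the replicates biological, and do not say whether the cultures were grown at different times.

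**Figure D3:**
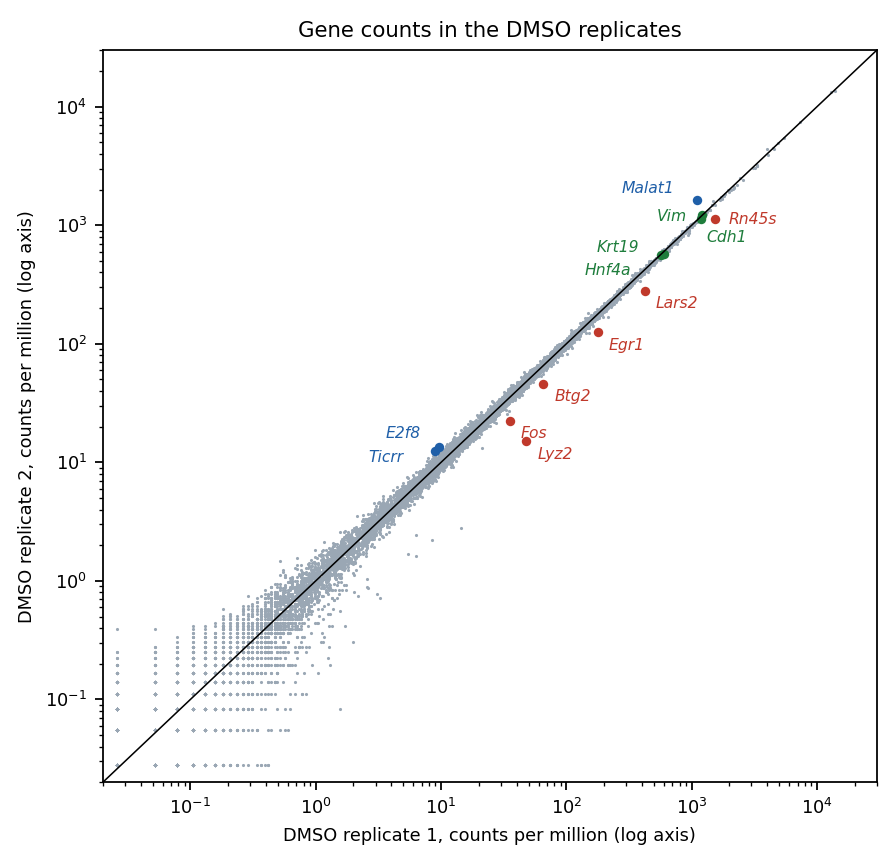
CPM of every gene with a count in both DMSO libraries, replicate 1 against replicate 2, both on log axes, with the line of equal values. Green points are Cdh1, Krt19, Hnf4a and Vim, close to the line, red points are named genes higher in replicate 1 and blue points named genes higher in replicate 2.

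Few genes differed much between the replicates. Of the expressed entries 15 were over 1.5-fold higher in replicate 2 (0.13%) and 17 over 1.5-fold lower (0.147%), while 54% were higher in replicate 2 by any amount, a share that was 48% for the same entries with TMM scaling and so has no fixed direction. All 7 entries past 2-fold were higher in replicate 1. They were Ccl6 at 14.3 and 2.78 CPM, Lyz1 at 6.36 and 1.61 CPM, Mmp12 at 8.52 and 2.23 CPM, Lpl at 5.45 and 1.7 CPM, Lyz2 at 47.6 and 15 CPM, Ctss at 6.25 and 2.42 CPM and Laptm5 at 2.55 and 1.03 CPM. Lysozymes, the chemokine Ccl6, the elastase Mmp12, the protease cathepsin S (Ctss) and the lysosomal protein Laptm5 are known from macrophages, and the lipase Lpl from fat cells and macrophages. The whole leukocyte list of 19 genes summed to 69.6 CPM in replicate 1 and 30.4 CPM in replicate 2. Its most abundant gene Lyz2 alone gave 47.6 and 15 CPM of these sums, so their difference rested mainly on that gene. Ptprc, which encodes the leukocyte antigen CD45, stood at 2.92 and 1.92 CPM, and the further expressed members were Cd68 at 3.41 and 3.45 CPM, Cd74 at 3.86 and 2.84 CPM, Itgam at 3.0 and 2.48 CPM and Csf1r at 2.01 and 1.11 CPM. The lymphocyte genes Cd3e, Cd4, Ms4a1 and Nkg7 had 0 counts in both libraries. The part of other cells in these differences was not tested.

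Among entries with a mean of at least 10 CPM, the largest ratios toward replicate 1 were those of Lyz2, Mir6236, Fos, Lars2 and Btg2. Fos and Btg2, genes that respond within minutes to stimuli, stood at 35.4 and 22.5 CPM for Fos and 65.1 and 46.1 CPM for Btg2. Mir6236 stood at 21.3 and 13.2 CPM and Lars2, a mitochondrial synthetase gene, at 423 and 281 CPM. With Rn45s, the precursor of ribosomal RNA, at 1535 and 1127 CPM, all were higher in replicate 1. Mir6236, Lars2 and Rn45s were grouped as ribosomal RNA-related entries after their values were seen. Whether the counts of Mir6236 and Lars2 came from ribosomal RNA was not tested. The largest ratios toward replicate 2 were those of the nuclear RNA Malat1 at 1111 and 1643 CPM, the S phase genes E2f8 at 9.64 and 13.5 CPM and Ticrr at 8.89 and 12.4 CPM, the kinetochore gene Zwilch at 12.8 and 17.6 CPM and 3110052M02Rik at 9.15 and 12.2 CPM. Lists of the same kinds of genes were added because of these values and are no support for them. They had 21 of 23 immediate-early genes higher in replicate 1, by a median log2 ratio of -0.21, and 27 of 28 mitosis genes higher in replicate 2, by a median of 0.22, and TMM scaling gave 22 and 27. Over all expressed entries 46% were higher in replicate 1 and 54% in replicate 2. These are differences between 2 libraries of the same group, they have no replicate check, and their origin was not tested.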

How the data were processed

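RNA-seq counts of 2 DMSO libraries of NMuMG cells were described. According to the study's methods and the submitters' processing notes, the authors checked single-end reads with FastQC 0.11.2, aligned them with TopHat2 2.0.13 and counted them per gene with featureCounts, and the deposited values are raw counts without normalization. The methods name a human genome and the notes mm10, and the symbols are those of mouse. Strand setting and treatment of multiply aligned reads are not given in the sources used here. All values were even, for a reason not given, and 25 names had become dates and were not used as names. Counts were divided by the column sum (CPM) and by merged exon length from GENCODE for GRCm38 (RPKM), with 17551 entries matched by symbol and 722 by synonym. Promoters came from RefSeq. No test between groups was made, since only 1 group was described. Genes named were the markers, defining members, the 4 highest per length in each list, the 10 most abundant, the 5 largest replicate ratios each way and genes the study names; some of these are not reported here. Other names, and the gene pairs compared as ratios, were chosen after their values were seen. The members and the 30 lists were chosen with earlier results of these data known, and 3 further lists and 2 alternatives after these values. The mitochondrially encoded genes of 1 list were not analysed here. Other thresholds, TMM (edgeR 4.0.16), size factors (DESeq2 1.42.0), another length and each library alone were alternatives. The code for the ratios was checked on simulated data with known changes. Python 3.11.15 and R 4.3.3 were used.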

Additional observations from a re-analysis of the deposited data

How the results depend on the processing

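The number of expressed entries, 11580 under the settings used, was 12229 at 0.5 CPM, 10080 at 5 CPM, 11567 with TMM or DESeq2 size factors, 11647 with the 10 highest genes left out of the total, 11813 when either library sufficed and 11562 without date-named entries, the last chosen after seeing the data. It was 11683 to 11710 with a replicate left out. Over all lists 406 different genes were expressed, against 437 at 0.5 CPM, 344 at 5 CPM, 357 at 1 RPKM and 405 with TMM, and 414 to 415 with a replicate left out. Of 29 lists with measured genes the count moved by over 1.5 times in 1 list at 0.5 CPM, 9 lists at 5 CPM and 8 lists at 1 RPKM, and in 0 lists under the other settings, so the shares of weakly expressed lists depend on the threshold. At 0.5 CPM the list that moved was that of histone genes. At 5 CPM or 1 RPKM the lists that moved were epithelial regulators, mammary genes, kidney tubule, mesenchymal, leukocyte and endothelial genes. Adipocyte, neural with muscle and erythroid, receptor tyrosine kinase and Hox genes moved there as well. The SD of the log2 ratio between replicates was 0.50 over all entries with a count in both libraries and 0.081 at 10 CPM or more, against 0.13 at 1 CPM, since weak genes carry more counting error. It was 0.12 without the leukocyte and ribosomal RNA-related entries, left out after seeing the data.

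Levels per length depended on the length. With the longest annotated transcript Cdh1 stood at 274 RPKM, Krt19 at 369.9 RPKM, Hnf4a at 129.5 RPKM and Vim at 395 RPKM, which moved Vim from the third to the first place among them. With a replicate left out Cdh1 was 264 to 267 RPKM, Krt19 306 to 322 RPKM, Hnf4a 116.9 to 117 RPKM and Vim 238 to 249 RPKM. Of 36 other defining members 16 moved by more than the SD between libraries with the longest transcript. Among the ratios of 2 genes given above, that of Stim2 over Stim1 changed order and that of Cdh1 over Cdh2 fell to 7.95, and the others kept their order and moved by less than 1.5 times. The order of Spp1 and Clu was also reversed with the longest transcript. Beyond the markers and the gene pairs compared as ratios, orders per length were not repeated with that length. No paired analysis was possible because only 1 group was described.

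With 2 libraries an SD has little precision. Genes under 1 CPM rest on few counts, and absence is limited by the depth given above. Bulk RNA does not tell whether epithelial, endodermal and mesenchymal genes were expressed in the same cells. Reads from near-identical genes, pseudogenes and overlapping genes could not be separated. RNA levels are no measure of protein. The DMSO cells were not compared with mammary or liver tissue, and the lists overlap.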
